A study of Homo sapiens with 10 samples.

Results

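The EGR factors and their NAB corepressors were followed through all 10 libraries as 6 genes, EGR1, EGR2, EGR3, EGR4, NAB1 and NAB2, of the 20327 genes in each deposited table. The genes were chosen by family, and their Ensembl identifiers were matched to symbols. Merbarone, a catalytic inhibitor of DNA topoisomerase II, had been given to wild-type hTERT RPE-1 cells, a telomerase-immortalised line from human retinal pigment epithelium. All groups had been starved for 48 h in 0.1% serum. In the 30 min experiment, merbarone at 200 µM for 30 min was compared with DMSO, its vehicle, for 30 min (3 libraries each). In the 2 h experiment, merbarone at 200 µM for 2 h was compared with untreated cells that had no vehicle (2 libraries each). All libraries came from 1 cell line, and the labels do not call the replicates separate cultures, so p-values measure only the spread between these libraries, which may be technical.

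EGR proteins are zinc-finger transcription factors that bind GC-rich sites, and EGR1 is a classic immediate-early gene: growth factors, stress and serum switch it on within minutes without new protein. The signal runs through the ERK kinases to serum response factor (SRF) and its ELK partners, which bind CArG boxes in the EGR1 promoter. NAB1 and NAB2 have no DNA-binding domain of their own. They bind EGR proteins and repress their targets, in part through the NuRD chromatin complex, and NAB2 is known in other cells as a gene that EGR factors induce.

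The promoters of EGR1, EGR2 and NAB2 are shown because EGR1 and EGR2 rose after 2 h of merbarone while NAB2 was not called, and because CArG boxes and EGR sites are known control elements of such genes. Sequences are from RefSeq (GRCh38.p14) and cover the 250 bases before a transcription start, read 5′ to 3′ on the strand of the gene. Of the 6 genes, 5 had a window in the RefSeq table, and EGR3 is named only. Capitals mark a CArG box in the EGR windows and the EGR site GCGGGGGCG in the NAB2 window.
EGR1 (chr5:138465229-138465478, plus strand): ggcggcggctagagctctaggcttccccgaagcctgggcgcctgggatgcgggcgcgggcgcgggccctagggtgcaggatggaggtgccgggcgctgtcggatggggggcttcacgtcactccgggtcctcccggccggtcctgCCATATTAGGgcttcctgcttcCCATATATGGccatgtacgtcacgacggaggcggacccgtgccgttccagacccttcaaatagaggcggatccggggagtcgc
EGR2 (chr10:62816367-62816616, minus strand): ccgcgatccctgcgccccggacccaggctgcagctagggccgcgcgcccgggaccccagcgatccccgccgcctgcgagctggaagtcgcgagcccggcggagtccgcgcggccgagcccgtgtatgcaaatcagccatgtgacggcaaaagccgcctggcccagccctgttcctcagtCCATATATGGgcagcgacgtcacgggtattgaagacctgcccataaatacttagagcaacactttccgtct
NAB2 (chr12:57088864-57089113, plus strand): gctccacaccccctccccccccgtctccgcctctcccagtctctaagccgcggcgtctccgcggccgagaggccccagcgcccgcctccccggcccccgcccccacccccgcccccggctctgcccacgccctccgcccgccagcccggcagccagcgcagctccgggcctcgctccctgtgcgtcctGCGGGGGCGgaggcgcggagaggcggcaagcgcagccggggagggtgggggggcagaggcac
CArG boxes were searched on both strands. The EGR1 window held 2, ccatattagg at -105 to -96 and ccatatatgg at -83 to -74 from the start. The EGR2 window held 1, ccatatatgg at -71 to -62, and the windows of its 2 other starts held none. No CArG box was found in the windows of EGR4, NAB1 or NAB2. Over all 35116 RefSeq windows of this length, 1.16% held one. The site GCGGGGGCG, searched on both strands, lay at -62 to -54 in the NAB2 window and in the windows of 2 of the 3 NAB1 starts, which overlap and share the same matches, against 4.72% of all windows. The form GCGTGGGCG lay in 1 NAB1 window and in 0.720% of all windows. In the NAB2 window the GCGGGGGCG match overlapped 1 of 4 matches to the SP1 motif GGGCGG, which 42.6% of all windows held. These are matches of letters only.

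Values were deposited as RPKM, the reads-per-million value (RPM: a gene's reads scaled to a common library size) divided by the kilobases of the gene. Whole reads could be recovered from them, and the library totals they imply ran from 26644379 to 38240706 reads in the 30 min experiment and from 11962092 to 13696974 in the 2 h experiment. In the 30 min experiment both libraries numbered 1 stood apart: counts of replicates differed by a chi-square per degree of freedom of 53.0 to 63.3 in pairs with such a library and 15.8 to 22.5 in pairs without. The 30 min results of the members are given with and without them. Of the pigment epithelium markers, OTX2 (2.35 to 4.61 RPKM) and PMEL (3.68 to 5.07 RPKM) were present in every library. So were BEST1 (906 to 4101 reads) and MITF (830 to 2105 reads). The markers RPE65 (2 to 19 reads), RLBP1 (2 to 22), TYR (0 to 14) and TYRP1 (6 to 27) were near 0. Vimentin was at 560 to 1105 RPKM. Of the other epithelial or mesenchymal markers, KRT8, KRT18 (1999 to 3649 reads, 14.1 to 69.4 RPKM), TJP1 and CDH2 were present in every library. CDH1 (0 to 6 reads) and EPCAM (0 to 2) were at or near 0. Markers of other cell types were at or near 0, with 0 reads of CD3E in all 10 libraries and 4 to 25 of PTPRC.

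EGR1 (ENSG00000120738; GRCh37 chr5:137801168-137804992, plus strand), the founding member of the family, had the highest level per kilobase of exon of the 6 genes after merbarone. In DMSO its level was 15.9, 5.16 and 3.36 RPKM in replicates 1, 2 and 3. After 30 min of merbarone it was 72.8, 37.0 and 28.9 RPKM. Every merbarone library lay above every DMSO library, and replicate 1 was the highest in both groups. Untreated cells held 2.73 and 2.69 RPKM. After 2 h of merbarone the level was 65.7 and 53.1 RPKM, with no overlap. Among genes averaging 10 reads or more, 1.28% were higher without overlap at 30 min and 28.8% at 2 h. Behind these values were 123 to 1620 reads in control libraries and 2650 to 9382 in merbarone libraries. In bulk RNA, more cells with the transcript and more transcript per cell cannot be told apart.

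**Figure D1:**
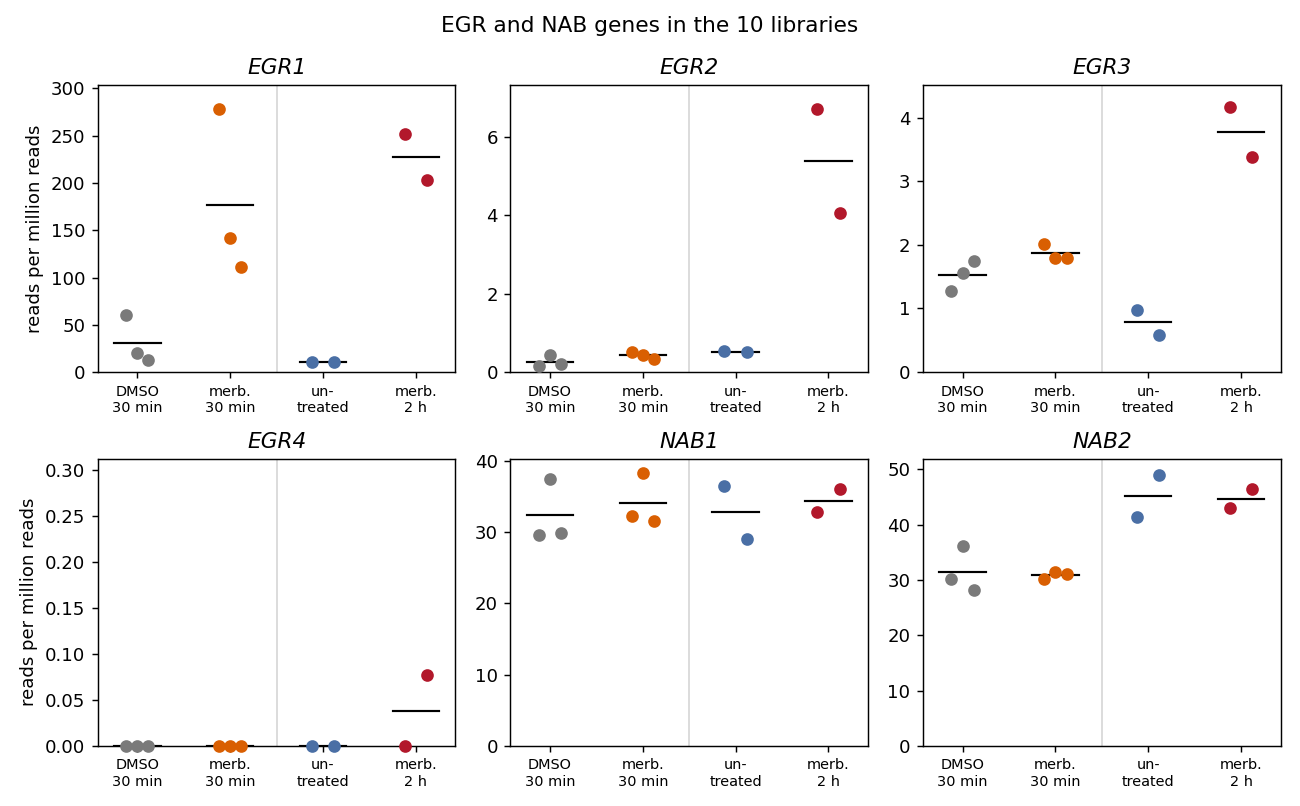
Reads-per-million (RPM) of the 6 genes (vertical axes, each with its own scale from 0) in the 10 libraries by group; points are libraries, bars are group means, and the grey line parts the 2 experiments. The group means of EGR1, EGR2 and EGR3 are highest after 2 h of merbarone, the highest single EGR1 library is replicate 1 of 30 min of merbarone, and NAB1 and NAB2 overlap between merbarone and control in both experiments.

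The ratio of group means for EGR1 was 5.69 at 30 min. Same-numbered libraries gave 4.58-, 7.18- and 8.62-fold, so the smallest ratio belonged to replicate 1, whose control was the highest. The log2 fold change on the log2(RPKM + 1) scale was 2.51 ± 0.56 (SE, n = 3; unadjusted p = 0.00369), rank 3 among the rises of 6500 genes tested. It did not pass the threshold of 0.05 after Benjamini-Hochberg adjustment in limma (adjusted p = 1.00), where 0.0154% of genes were called. EGR1 and NAB2 were the only members with enough RPKM for this test, so 0 of 2 were called, and EGR1 was the 1 with an unadjusted p under 0.05.

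Same-numbered libraries of the 30 min experiment deviated together, and with the replicate number as a block EGR1 rose, with the same fold change, an SE of 0.12 and an adjusted p of 0.00506 in limma. That fit called 0.123% of genes. With limma's voom on the recovered reads it was 2.79 ± 0.57 (adjusted p = 1.00) without the block and 2.64 ± 0.14 (adjusted p = 7.90e-05) with it, where 0.0928% of genes were called. Without both libraries numbered 1, limma gave 2.70 ± 0.20 with an adjusted p of 0.159, and voom gave 3.00 with 0.0558. The fold change was thus as large without them, while no fit without the block called EGR1.

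At 2 h the ratio of EGR1 means was 21.9, and the same-numbered pairs gave 24.1- and 19.8-fold. EGR1 rose by a log2 fold change of 4.02 ± 0.12 (SE, n = 2; limma, adjusted p = 2.06e-07), rank 2 of 6620 genes. In this comparison 13.1% of genes were called, 5.98% upward and 7.1% downward. EGR1 was called in 18 of 18 alternative fits, with log2 fold changes between 3.87 and 4.60.

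**Figure D2:**
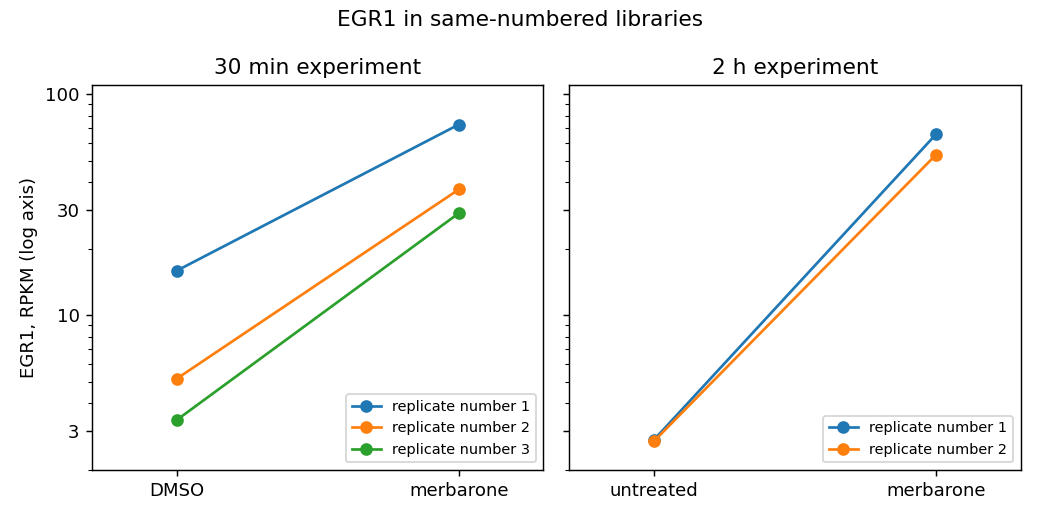
EGR1 level in RPKM (log axis) in control and merbarone libraries, with lines joining libraries that carry the same replicate number. All 5 lines go up; in the 30 min experiment they start at 3.36 to 15.9 RPKM, and at 2 h they start at 2.69 and 2.73 RPKM.

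EGR2 (ENSG00000122877; GRCh37 chr10:64571756-64578927, minus strand), known for its role in myelination and hindbrain patterning, had few reads in control cells. It held 4, 13 and 8 reads in DMSO, or 0.150, 0.424 and 0.209 RPM. After 30 min of merbarone it held 17, 16 and 12 reads, or 0.505, 0.427 and 0.342 RPM, which overlapped the DMSO libraries. Untreated libraries held 7 and 6 reads, 0.525 and 0.502 RPM. After 2 h of merbarone there were 92 and 53 reads, 6.72 and 4.06 RPM, well above all others.

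The deposited RPKM of EGR2 rested on a length of 107905 bp, 15.0 times the span of the gene, so its RPKM is low for its reads. That length is close to the 107912 bp that EGR2 covers together with an overlapping lncRNA on the same strand, ENSG00000289487. Reads of the lncRNA and of EGR2 cannot be told apart in these values. Levels of EGR2 are therefore given in RPM, and its test as voom on reads.

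EGR2 did not pass at 30 min, with a log2 fold change of 0.76 ± 0.41 (SE, n = 3; voom, adjusted p = 1.00), where 0.00714% of genes were called. It was 0.37 ± 0.46 (voom, adjusted p = 1.00) without both libraries numbered 1. At 2 h it rose by 3.26 ± 0.42 (SE, n = 2; voom, adjusted p = 2.22e-05), rank 9 of 13440 genes; the ratio of means was 10.5. Voom called 14.0% of genes at 2 h, 7.94% upward and 6.09% downward. With each library left out in turn, which leaves 1 in its group, the fold change of EGR2 ran from 2.89 to 3.61. On log2(RPKM + 1) with no filter its fold change was 0.06 (limma, adjusted p = 0.134), on a scale that the long length compresses; that fit called 0.315% of genes.

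EGR3 (ENSG00000179388; GRCh37 chr8:22545172-22550993, minus strand), a family member known from muscle spindle development and lymphocytes, had 34, 48 and 67 reads in DMSO. These were 1.28, 1.56 and 1.75 RPM, against 2.02, 1.79 and 1.80 after 30 min of merbarone. The groups did not overlap, but by a narrow gap between DMSO replicate 3 and merbarone replicate 2. That was also so for 1.28% of genes. Untreated libraries held 0.975 and 0.585 RPM, from 13 and 7 reads. After 2 h of merbarone the values were 4.16 and 3.37 RPM, from 57 and 44 reads.

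At 30 min EGR3 did not pass, with a ratio of means of 1.22 and a log2 fold change of 0.27 ± 0.19 (SE, n = 3; voom, adjusted p = 1.00). Leaving out both libraries numbered 1 gave 0.11 ± 0.23 (voom, adjusted p = 1.00). At 2 h the ratio was 4.83 and EGR3 rose by 2.24 ± 0.37 (SE, n = 2; voom, adjusted p = 0.000382), rank 36 of 13440 genes. The 4 fits without 1 library, which leave 1 in its group, put EGR3 at 1.90 to 2.60. Voom with the replicate block also called EGR1, EGR2 and EGR3 at 2 h, along with 25.6% of genes. On log2(RPKM + 1) with no filter its fold change was 0.55 and it was not called (adjusted p = 0.0840). With all libraries kept, EGR2 reached the mean of 10 reads needed for voom only through merbarone libraries. This held at 30 min, at 2 h and in the joint fit of 10 libraries. The testing of EGR2 is thus not independent of its level in merbarone libraries. The untreated libraries of EGR3 met that mean on their own.

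EGR4 (ENSG00000135625; GRCh37 chr2:73518057-73520829, minus strand), whose known sites of action include male germ cells, was at 0 reads in 9 libraries. The exception was 1 read (0.0276 RPKM) in replicate 2 of 2 h of merbarone. A count of 0 allows up to 3 reads, which is 0.0785 to 0.113 RPM in the 30 min experiment and 0.219 to 0.251 in the 2 h experiment. At this depth EGR4 was not detectable beyond that level, and no fold change is given.

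NAB1 (ENSG00000138386; GRCh37 chr2:191511472-191557492, plus strand), the first of the corepressors, had 348 to 1436 reads per library. Its level was 0.644, 0.816 and 0.649 RPKM in DMSO and 0.701, 0.832 and 0.687 RPKM after 30 min of merbarone. Untreated cells held 0.792 and 0.632 RPKM, and 2 h of merbarone 0.712 and 0.785 RPKM. The groups overlapped in both experiments. Its RPKM is low because it was divided by the whole gene, 46021 bp, against 4887 bp of exon. The log2 fold change was 0.08 ± 0.12 (95% interval -0.21 to 0.38; voom, adjusted p = 1.00) at 30 min and 0.07 ± 0.14 (-0.22 to 0.37; voom, adjusted p = 0.766) at 2 h. Without both libraries numbered 1 the 30 min value was 0.07 ± 0.15 (voom, adjusted p = 1.00).

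NAB2 (ENSG00000166886; GRCh37 chr12:57482826-57489259, plus strand), the corepressor that EGR factors can induce, had 552 to 1177 reads per library. Its level was 4.58, 5.48 and 4.29 RPKM in DMSO and 4.58, 4.77 and 4.72 RPKM after 30 min of merbarone. Untreated cells held 6.29 and 7.43 RPKM, and 2 h of merbarone 6.54 and 7.05 RPKM. The groups overlapped in both experiments, and the 2 h merbarone libraries lay between the 2 untreated ones. NAB2 overlaps STAT6, on the other strand, by 69 bp, and the strand setting of the authors' counting is not given in the sources used here.

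The log2 fold change of NAB2 was -0.02 ± 0.08 (SE, n = 3; 95% interval -0.22 to 0.18; limma, adjusted p = 1.00) at 30 min, and -0.03 ± 0.11 (limma, adjusted p = 1.00) without both libraries numbered 1. At 2 h it was -0.01 ± 0.10 (SE, n = 2; -0.24 to 0.22; limma, adjusted p = 0.964). Changes smaller than these intervals were not detectable. NAB2 was called in 0 of 17 alternative fits at 30 min and 0 of 18 at 2 h.

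**Figure D3:**
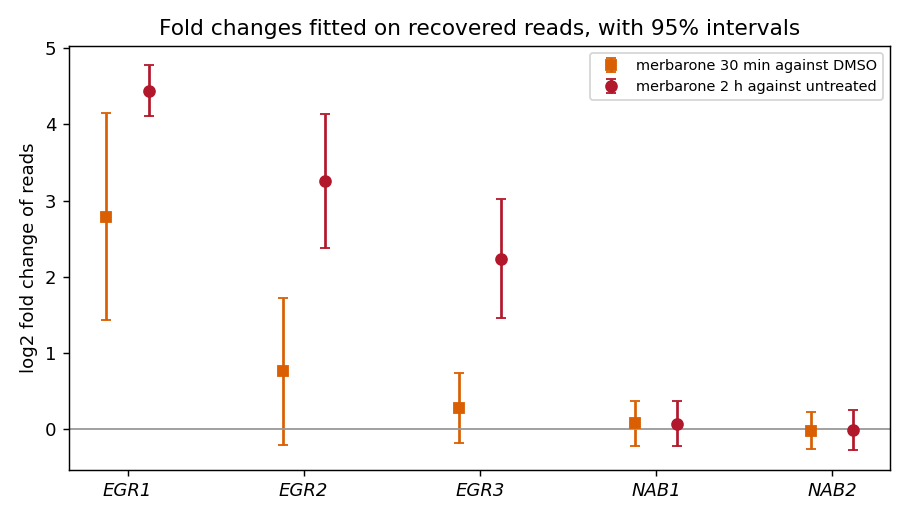
Log2 fold changes of 5 members fitted by voom on recovered reads, with 95% intervals; squares are 30 min of merbarone against DMSO and circles are 2 h against untreated cells. At 2 h the intervals of EGR1, EGR2 and EGR3 lie above 0 and those of NAB1 and NAB2 span it; EGR4 was not fitted.

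EGR1 was the bulk of the EGR reads in every group. It made up 86.7% to 97.7% of the reads of the 4 EGR genes in DMSO, 98.1% to 99.1% after 30 min of merbarone, 87.4% to 90.4% in untreated cells and 95.9% to 96.4% after 2 h. The lowest exact 95% binomial bound was 81.2%, in untreated replicate 1. These intervals cover counting error only.

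Levels of different genes were compared per kilobase of exon, which takes every read as exonic. The length behind the RPKM was within 1% of the whole span for 74.9% of genes, so intronic reads may be counted. NAB1 has 46021 bp of span against 4887 bp of exon, and the effect on its level here was not tested. On the exon scale EGR1 was at 9.92 ± 8.27 RPM per kilobase of exon in DMSO and 56.4 ± 28.5 after 30 min of merbarone (SD, n = 3). It was at 3.30 ± 0.033 in untreated cells and 72.4 ± 10.9 after 2 h (SD, n = 2). NAB2 stayed between 9.87 and 17.1 in single libraries and NAB1 between 5.95 and 7.84. EGR2 and EGR3 were far lower, at 1.45 ± 0.506 and 0.749 ± 0.111 after 2 h (SD, n = 2). The order after 2 h was EGR1, NAB2, NAB1, EGR2, EGR3 and EGR4, and no 2 neighbours in it overlapped in their libraries. The place of EGR2 takes all its reads as its own, though reads of the overlapping lncRNA may be among them.

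The summed EGR level over the summed NAB level was 1.19, 0.331 and 0.281 in DMSO replicates 1, 2 and 3, and 5.21, 2.43 and 2.06 after 30 min of merbarone. In untreated cells it was 0.167 and 0.153, and after 2 h of merbarone 3.80 and 2.82. The NAB sum was the larger in 4 of 5 control libraries, the exception being DMSO replicate 1. The EGR sum was the larger in all 5 merbarone libraries, and the groups did not overlap in either experiment. Among single genes averaging 10 reads or more, 1.28% were higher without overlap at 30 min and 28.8% at 2 h. EGR1 made up 90.8% to 99.4% of the EGR sum and both NAB genes overlapped, so the ratio mostly restates EGR1. NAB2 exceeded NAB1 by 1.40 to 2.87 times per exon kilobase, and by 5.73 to 11.8 times in RPKM, where the long introns of NAB1 count.

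**Figure D4:**
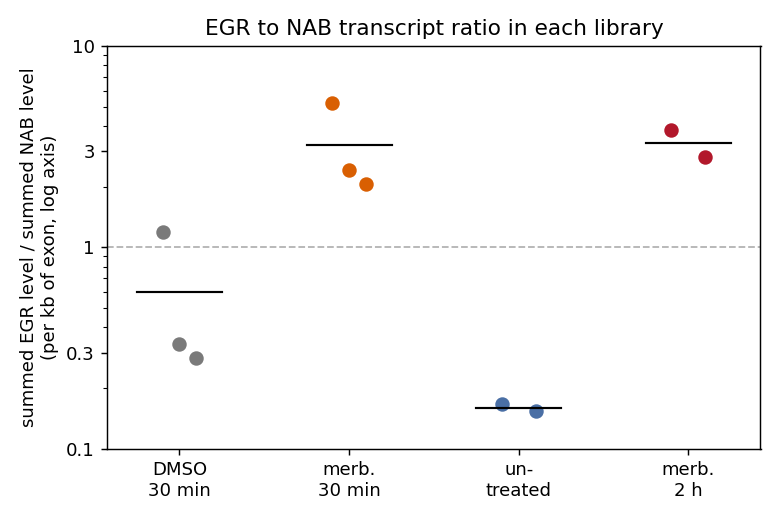
Ratio of the summed EGR level to the summed NAB level, both in RPM per kilobase of exon (log axis), in each library; bars are group means and the dashed line marks equal levels. Merbarone libraries lie between 2.06 and 5.21, and control libraries between 0.153 and 1.19.

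Whether the response differed between 2 h and 30 min was asked in a joint fit of the 10 libraries, in which time, kind of control and experiment cannot be told apart. For EGR1 the difference was 1.51 ± 0.74 (SE; 95% interval -0.17 to 3.18; limma, adjusted p = 0.361), where 1.63% of genes were called. With the replicate number as a block at 30 min only, where the numbers pair, it was 1.51 ± 0.19 with an adjusted p of 0.00287, and 10.1% of genes were called. A block in both experiments gave an adjusted p of 0.00341, with 19.1% of genes called. Without both libraries numbered 1 of the 30 min experiment the difference was 1.32 by limma (adjusted p = 0.0447) and 1.45 by voom (adjusted p = 0.0727). Without DMSO replicate 1 alone it was 0.94 (limma, adjusted p = 0.408).

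EGR2 and EGR3 were below the RPKM filter and were read by voom. The difference was 2.50 ± 0.65 for EGR2 (adjusted p = 0.167) and 1.97 ± 0.40 for EGR3 (adjusted p = 0.0899), where 0.475% of genes were called. With the block at 30 min only, voom called EGR2 at 2.58 ± 0.60 (adjusted p = 0.0204), EGR3 at 1.97 ± 0.40 (adjusted p = 0.0101) and EGR1 at 1.77 ± 0.28 (adjusted p = 0.00245), where 8.44% of genes were called. With a block in both experiments the same 3 members were called, with 15.1% of genes. Without both libraries numbered 1 and without a block, voom gave 2.88 for EGR2 (adjusted p = 0.0842) and 2.13 for EGR3 (adjusted p = 0.0434). On log2(RPKM + 1) with no filter limma called EGR2 (adjusted p = 0.0494) and EGR3 (adjusted p = 0.0153), with 2.04% of genes called. The difference was 0.01 ± 0.14 (SE; limma, adjusted p = 0.987) for NAB2 and -0.01 ± 0.22 (SE; voom, adjusted p = 0.997) for NAB1.

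**Figure D5:**
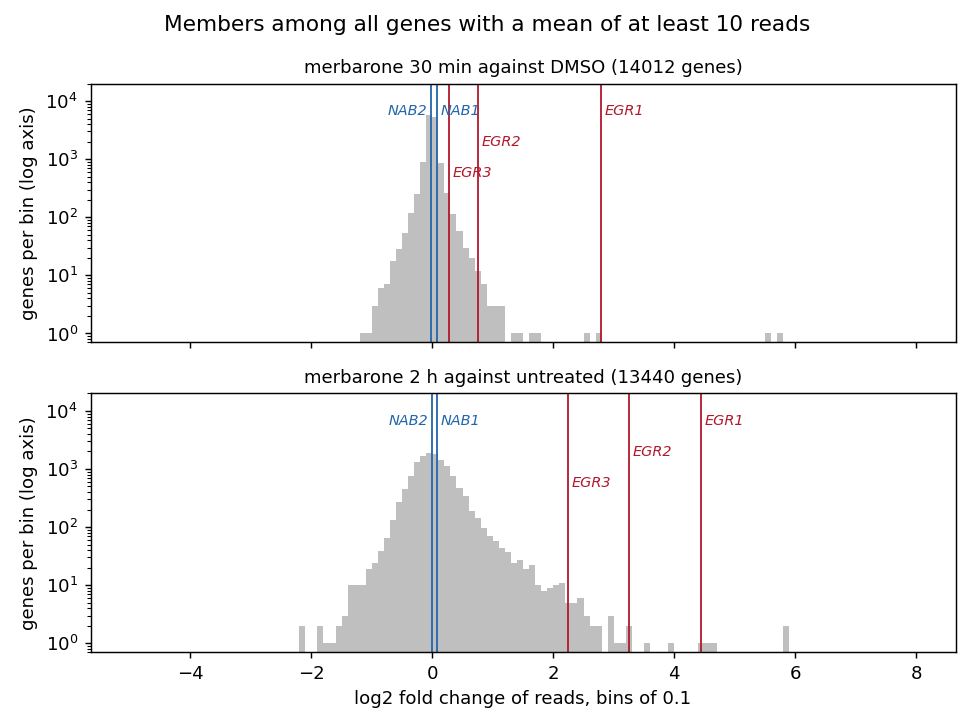
Distribution of log2 fold changes by voom over all genes averaging 10 reads or more (bins of 0.1, genes per bin on a log axis), at 30 min (14012 genes) and 2 h (13440 genes); vertical lines mark 5 members. EGR1, EGR2 and EGR3 lie in the upper tail at 2 h with ranks 5, 9 and 36, and NAB1 and NAB2 lie near the centre.

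The control groups of the experiments differed for NAB2, which was 0.44 ± 0.10 higher on the log2 scale in untreated cells than in DMSO (SE; limma, adjusted p = 0.00639). In that contrast 41.2% of genes were called, and vehicle and experiment cannot be told apart. STAT6, which overlaps NAB2, was lower by the same comparison (-0.32, adjusted p = 0.00821 by limma). NAB2 was called in 16 of 17 alternatives and lost the call without untreated replicate 2 (0.34, adjusted p = 0.0630). EGR1 was at -1.05 (limma, adjusted p = 0.139), at -0.48 without DMSO replicate 1 and at -1.46 without DMSO replicate 3, none of them called. EGR3 was at -0.95 (voom, adjusted p = 0.0509, 33.0% of genes called). With no filter limma called EGR3 lower (adjusted p = 0.0380) and 26.9% of genes.

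Genes known as EGR targets were read from a list of 20, chosen with earlier results of these data known and so no independent evidence of its direction. Limma tested 10 of them at 30 min and called 0, with 0 at an unadjusted p under 0.05. Only 0.0154% of all genes were called there, so 0 of 10 is near the share of all genes. Limma also called 0 under the replicate block, where 0.123% of all genes were called, with 2 at an unadjusted p under 0.05, both higher. Voom called 0 of 17 (1 at an unadjusted p under 0.05) and, with the block, 1, which was ATF3 (2.64 ± 0.23; voom, adjusted p = 0.00189). Of all genes, voom called 0.00714% without the block and 0.0928% with it. The median by limma was 0.03 against -0.01 for all genes, and 0.03 with 0 called without both libraries numbered 1. At 2 h 12 were tested, 5 rose and 0 fell, where 5.98% of all genes were called higher, with a median of 0.36 against -0.05. Limma with the block called 7 higher and 0 lower. Voom with the block called 10 of 18 higher and 1 lower, where 25.6% of all genes were called. ATF3, a stress-responsive transcription factor, rose from 0.108 ± 0.020 to 2.69 ± 0.642 RPKM (SD, n = 2; log2 fold change 1.73 ± 0.10 SE; limma, adjusted p = 1.80e-05). It passed the RPKM filter at 2 h only through the merbarone libraries. By voom, where its 69 and 81 untreated reads pass on their own, it rose by 4.63 (adjusted p = 6.73e-12). FN1, which encodes fibronectin, rose from 76.4 ± 1.96 to 169 ± 13.9 RPKM (1.13 ± 0.12; limma, adjusted p = 0.000412). VEGFA, an angiogenic growth factor, rose from 10.5 ± 0.557 to 23.2 ± 0.653 RPKM (1.07 ± 0.10; limma, adjusted p = 0.000217). FGF2 and CDK5R1 rose by 0.38 each (limma, adjusted p = 0.0258 and 0.0387). Voom tested 18 of the list at 2 h and called 9 upward, where 7.94% of all genes were higher, and 0 downward. GDF15, 1 of these 9, reached the mean of 10 reads only through the merbarone libraries. It had 4 and 1 reads in untreated cells and 38 and 27 after merbarone.

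The upstream pathway was read from 15 genes of the ERK cascade, SRF and its partners. At 30 min 8 were tested and 0 were called, with 0 at an unadjusted p under 0.05 and 0 by voom, also without both libraries numbered 1. Limma called 0.0154% and voom 0.00714% of all genes at 30 min. A count of 0 in this list or in the lists below is near that share. At 2 h 0 rose and 1 of 8 fell, a share near the 7.1% of all genes called lower. The median was -0.10 against -0.05 for all genes by limma and 0.02 against 0.00 by voom. That gene was SRF itself, which went from 12.4 ± 1.06 to 8.96 ± 0.048 RPKM (SD, n = 2; log2 fold change -0.42 ± 0.10 SE; limma, adjusted p = 0.0266). Of 13 NuRD genes 9 were tested, with 0 called at 30 min (0 at an unadjusted p under 0.05, 0 by voom). At 2 h the deacetylase HDAC1 fell, from 2.14 ± 0.020 to 1.64 ± 0.027 RPKM (SD, n = 2; -0.25 ± 0.07 SE; limma, adjusted p = 0.0447), 1 of 9 where 7.1% of all genes were lower. Voom called 2 of 13 lower, HDAC1 and MBD2, where 6.09% of all genes were. Of 4 factors with related GC-rich sites, SP1, SP3, WT1 and HCFC1, 3 were tested and 0 were called at either time by limma or voom, with 0 at an unadjusted p under 0.05.

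The genes whose levels followed EGR1 most closely over the 10 libraries, after the mean of each experiment was subtracted, were DUSP1 (Pearson r = 0.974), JUNB (0.961), JUN (0.953), JAG1 (0.942) and ENSG00000196966 (0.919), among 6558 genes. For NAB2 they were TMEM198 (0.968), RHBDD3 (0.963), SIRT6 (0.952), ENSG00000100101 (0.949) and NPDC1 (0.948). These values describe the ranking only, since the genes share libraries, depth and treatment.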

How the data were processed

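Polyadenylated RNA of the 10 libraries had been sequenced after TruSeq Stranded mRNA preparation from 150 ng of total RNA, per the labels' protocols. The authors deposited 1 RPKM value per gene and library, not log-transformed or pooled, per the file headers. Bowtie 1.2.0, DESeq2, edgeR, deepTools 2.4.1 and the build hg19/GRCh37 appear in the submitters' processing notes, without their roles. Whole reads were recovered from the RPKM steps for 17680 of 17680 genes above 0 (tolerance 0.001 of a read), 705 of them above 0 in 1 library only and taken as 1 read, EGR4 among these.

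Each comparison was fitted over all genes on log2(RPKM + 1) in limma 3.58.1 (R 4.3.3; eBayes with trend) for genes averaging 1 RPKM or more, two-sided, with Benjamini-Hochberg adjustment at 0.05. EGR1 and NAB2 passed that filter. Voom on recovered reads (10 reads or more on average) covered every member but EGR4. Recovery and summaries used pandas 2.3.3 with NumPy 2.4.6 in Python 3.11.15, and plots matplotlib 3.10.9. The 6 members are always named, with up to 5 rises and 3 falls from each gene list and the 5 genes most like EGR1 and NAB2. Members and lists were chosen with earlier results of these data known, which had named ATF3. Gene positions are GRCh37, from GENCODE.

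The replicate numbers in the labels were taken to pair libraries at 30 min, where deviations of same-numbered libraries correlated at 0.925, 0.646 and 0.605. Differently numbered libraries correlated at -0.716 to 0.365, the highest being DMSO replicate 2 with merbarone replicate 3. Deviations were taken from the group mean, so these values are not independent. At 2 h, with 2 pairs, the value for same-numbered libraries was 0.300 and the numbers were not taken to pair. Recovery and both tests were checked on simulated data. The simulated libraries were independent, so the check does not cover the shared deviations at 30 min or the libraries numbered 1. Its changed genes lay above the RPKM filter and all genes had the same fixed spread. It thus does not cover voom at the few reads of EGR2 and EGR3. The alternatives tried were the block, voom, a joint fit of 10 libraries, leaving out each library, quantile normalization, median scaling, no trend in eBayes, a filter of 5 RPKM or none, and 0.1 as pseudocount. Those without both libraries numbered 1, voom with a 2 h library left out, and the block at 30 min only, were added after seeing the data.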

Additional observations from a re-analysis of the deposited data

Results flagged for a closer look

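The effect of merbarone at 2 h differed from that at 30 min for 3 members by a test of the difference itself, voom over all 10 libraries with the replicate block at 30 min only, where the numbers were taken to pair. This fit was chosen after seeing the data. It called 8.44% of all genes tested, against 0.475% by voom without a block. The difference was 1.77 ± 0.28 (SE) for EGR1, 2.58 ± 0.60 for EGR2 and 1.97 ± 0.40 for EGR3, on the log2 scale. Without any block, voom gave 1.67, 2.50 and 1.97, and none of the 3 passed (adjusted p = 0.569, 0.167 and 0.0899). With all 10 libraries, these voom calls thus rest on the pairing at 30 min. Of other fits without a block, limma with no filter called EGR2 (adjusted p = 0.0494) and EGR3 (adjusted p = 0.0153). Without both libraries numbered 1, limma called EGR1 (adjusted p = 0.0447) and voom EGR3 (adjusted p = 0.0434). No fit without a block called all 3. Behind EGR2 stood 4 to 92 reads per library and behind EGR3 7 to 68. EGR2 entered this fit, at a mean of 10 reads, only through merbarone libraries. Time, kind of control and experiment cannot be told apart.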

How the results depend on the processing

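No member changed direction past a threshold. The number of members called at 30 min was 0 and became 1 with the replicate block and 1 with voom and the replicate block, both EGR1. At 2 h it was 1 and became 3 with voom, and 3 with voom and the block, EGR2 and EGR3 being added. Limma with no filter also tested those genes at 2 h and did not call them. For the difference between 2 h and 30 min it was 0, and became 2 with no filter (EGR2 and EGR3), 1 with the replicate block in both experiments or at 30 min only (EGR1), and 3 with voom and either block. Without both libraries numbered 1 of the 30 min experiment it was 1 by limma, EGR1, and 1 by voom, EGR3. For untreated against DMSO it was 1 and became 2 with no filter, EGR3 being added. Leaving out 1 library in limma gave 0 each time at 30 min, 1 each time at 2 h, 0 each time for the difference and 0 to 1 for the controls, the 0 being without untreated replicate 2. At 2 h a library left out leaves 1 in its group, in limma as in voom, so a call there carries little weight. By voom the log2 fold changes then ran from 4.29 to 4.60 for EGR1, 2.89 to 3.61 for EGR2 and 1.90 to 2.60 for EGR3. Counts of all genes called moved too. At 30 min they went from 1 to 8 with the block and 13 with voom and the block. At 2 h they went from 866 to 53 with no filter, 2129 with the block, 1886 with voom, 3438 with voom and the block, and 328 to 2464 in limma with a library left out. For the difference they went from 107 to 361 with no filter, 66 with voom, 1255 with the block, 665 with the block at 30 min only, 2094 with voom and the block and 1173 with voom and the block at 30 min only, and for the controls from 2702 to 4760 with no filter. The cause was not tested. At 2 h the block leaves 1 residual degree of freedom. The reads limit EGR2, EGR3 and EGR4, and 2 libraries per group limit the 2 h results.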
